A study of Mus musculus with 12 samples.

Results

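The mRNA response of mouse embryonic fibroblasts to 4 h of PER2-ER induction was measured across all genes expressed above a low minimum. The cells are of the 129/sv background, carry a PER2-ER transgene and have the genotype per1-/-, per2-/-, nr1d1-/-, nr1d2-/-, which both groups share. Cells of the mRNA_4OHT group received 1 µM 4-hydroxytamoxifen (4-OHT), and those of the mRNA_EtOH group received its solvent, 0.1% ethanol (EtOH), for 4 hours each, with 2 libraries per group. A gene was tested if it reached 1 CPM (count per 1000000 library reads) in at least 2 of the 4 libraries, which 11639 of 23420 genes did. The labels do not say whether the 2 libraries of a group came from separate cultures, so p-values reflect only how these libraries varied, and that variation may be technical. Neither the promoter that drives PER2-ER nor the number of cell clones is stated by the labels, and no 4-OHT-treated cells without PER2-ER were analysed, so effects of PER2-ER and of 4-OHT itself cannot be told apart.

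PER2 represses transcription in the circadian clock: with the CRY proteins it acts on the activator pair CLOCK and BMAL1, which binds E-box sequences in the promoters of clock genes and of many tissue-specific output genes. NR1D1 and NR1D2 are nuclear receptors of the same network that repress transcription. PER2-ER joins PER2 to a part of the estrogen receptor, and such fusions become active when 4-OHT binds that part. In fibroblasts, clock-controlled transcription is known to reach into matrix production, the cytoskeleton and growth factor signalling.

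The libraries held 60267540 to 89695667 reads counted in genes, and the trimmed-mean scaling factors were 0.993 to 1.01. Of 12 fibroblast markers, 8 were tested and Lum and Thy1 were at 0. Their summed level was 27858 to 30139 CPM in EtOH and 28488 to 30385 CPM in 4-OHT. The markers listed for epithelial, endothelial, immune and neural cells summed to 31.1 CPM or less per list in each library. Those of muscle, which include smooth muscle actin and calponin, summed to 1166 to 1266 CPM with Myod1 at 0. In a bulk sample, fewer cells of a type and less RNA per cell cannot be told apart. Reads assigned to Per2 and Esr1, the genes that supply sequence to the transgene, gave 550 to 609 CPM for Per2 and 183 to 197 CPM for Esr1 over the 4 libraries, with neither called. Nr1d1 held 16.4 to 56.0 CPM and Per1 36.7 to 45.4 CPM although both are deleted by genotype, so exon counts do not check these deletions.

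More transcripts fell than rose, and falls of at least 2-fold were nearly all of the large changes. With edgeR's quasi-likelihood test and a Benjamini-Hochberg adjusted p below 0.05, here termed called, 303 of the 11639 genes (2.6%) differed between 4-OHT and EtOH. Of these, 202 were lower (1.74%) and 101 were higher (0.868%) after 4-OHT. The CPM values of the groups did not overlap for any of the 303 genes, as they did not for 2191 genes higher and 2145 lower among all tested. Among genes called lower the median log2 change was −0.44 (quartiles −0.68 and −0.31), 22 fell at least 2-fold and 67 at least 1.5-fold. For genes called higher the median log2 change was 0.41 (quartiles 0.31 and 0.52), 1 gene rose at least 2-fold and 14 at least 1.5-fold. The 2-fold riser was Nptxr, the neuronal pentraxin receptor, at 0.295 and 0.852 CPM in EtOH and 1.42 and 2.0 CPM in 4-OHT. It passed the expression minimum only through the 4-OHT libraries, and 8 of the 22 falls of at least 2-fold passed it only through the EtOH libraries, so their direction was fixed by the minimum. Among genes that passed it in both groups, 14 fell and 0 rose at least 2-fold, and the median log2 change was −0.44 for lower and 0.40 for higher genes. Clock genes made up 10 of the calls, leaving 94 higher and 199 lower genes outside the clock list. That list holds core clock genes and textbook CLOCK-BMAL1 targets, with Tsc22d3 among them.

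Most of the transcriptome stayed within a narrow band. The median absolute log2 change of all tested genes was 0.06, and 70.3% of them lay below 0.1. At an unadjusted p below 0.05, which does not correct for the number of genes, 609 were higher and 596 lower. These numbers were nearly even, unlike those of the called genes. The median standard error of a called log2 change was 0.09 for higher and 0.07 for lower genes.

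**Figure D1:**
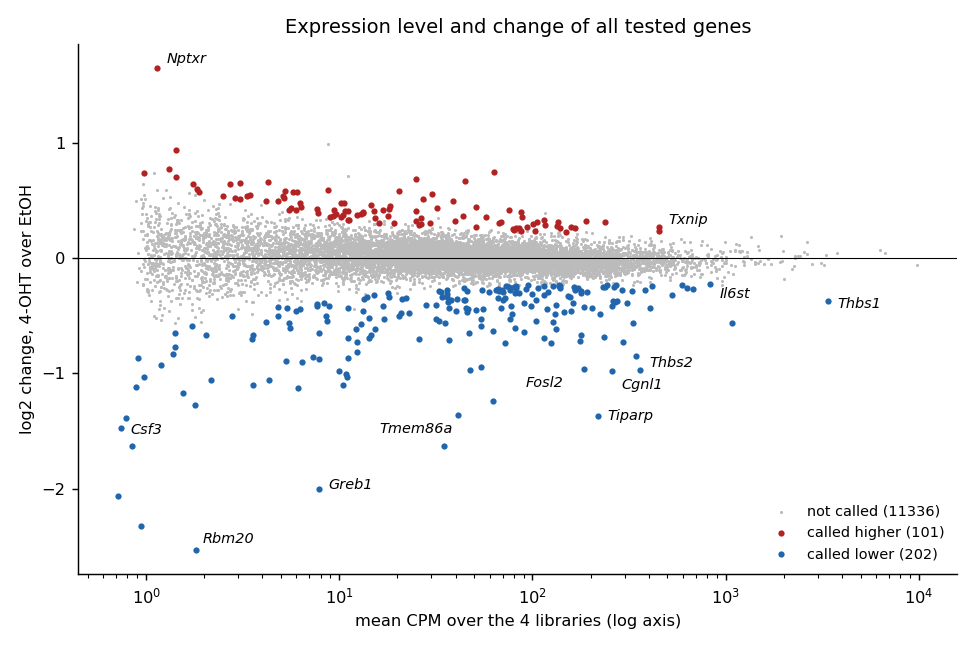
Each point is a tested gene, with its mean CPM over the 4 libraries on a log axis and its log2 change of 4-OHT over EtOH on the other axis; red and blue points are the 101 genes called higher and the 202 called lower. The blue points reach below −1 across a wide range of levels, whereas the red points lie mostly below 0.6 and thin out among the most abundant transcripts.

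Outside the clock list, the falls of at least 10 mean CPM were led by Tiparp, a mono-ADP-ribosyltransferase known as a target and inhibitor of the aryl hydrocarbon receptor (chr3:65528447-65555518, mm10). Tiparp was at 314 and 319 CPM in the EtOH libraries and at 129 and 116 CPM in the 4-OHT libraries. The groups lay far apart, with a log2 change of −1.37 ± 0.07 (SE, n = 2 libraries per group, edgeR adjusted p = 2.9e-16). Tmem86a, an enzyme that breaks down lysoplasmalogens (chr7:47050640-47054776), was at 61.6 and 57.4 CPM in EtOH and at 23.2 CPM in both 4-OHT libraries, a 2.56-fold fall.

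Several structural and signalling genes of high abundance dropped to about the same degree. Thbs2, a matrix thrombospondin that restrains blood vessel growth (chr17:14665500-14694262), was at 498 and 459 CPM in EtOH and 239 and 249 CPM in 4-OHT, a log2 change of −0.97 ± 0.06 (SE). Cgnl1, the junction protein paracingulin (chr9:71626509-71771602), went from 329 and 360 to 176 and 173 CPM, a log2 change of −0.98. The centrosomal coiled-coil protein gene Tacc1 (chr8:25154552-25201449) went from 454 and 435 to 247 and 245 CPM, a log2 change of −0.85. In each of these 3 genes the 4-OHT libraries lay closer to each other than the EtOH libraries did.

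The other large falls were of genes with varied roles. Fosl2, an AP-1 transcription factor subunit, went from 254 and 233 to 123 and 128 CPM. Pdcd4, an inhibitor of translation initiation, went from 70.1 and 73.2 to 39.3 and 35.1 CPM. The homeobox gene Pknox2 went from 60.6 and 64.5 to 30.9 and 32.9 CPM. All 3 changed by −0.97 to −0.95 on the log2 scale. At 13.8 to 15.2 CPM in the EtOH libraries, the retrotransposon-derived gene Zcchc5, the matrix protein gene Sned1, the sedoheptulokinase gene Shpk and Macc1 changed by −1.10, −1.03, −1.0 and −0.87. Each of the 12 largest falls was called in all 4 fits that leave out 1 library.

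Rises of the same abundance outside the clock list were smaller. Tsc22d3, counted in the clock list but also listed as a glucocorticoid receptor target, rose more than those described next. It went from 34.9 and 34.5 to 56.3 and 54.3 CPM, a log2 change of 0.67 ± 0.07 (SE). Egr2, a zinc finger factor of the early growth response family (chr10:67537869-67542188), was at 17.1 and 15.3 CPM in EtOH and 23.2 and 25.3 CPM in 4-OHT. Its log2 change was 0.58 ± 0.08 (SE, edgeR adjusted p = 1.3e-05). Sox9, the transcription factor of cartilage and tendon progenitors (chr11:112782210-112787757), was at 31.9 and 32.9 CPM in EtOH and 44.7 and 46.3 CPM in 4-OHT, a log2 change of 0.49 ± 0.07 (SE, edgeR adjusted p = 2.1e-05). The cartilage matrix gene Cilp2 went from 26.1 and 22.8 to 33.0 and 38.7 CPM. The groups did not overlap in Egr2, Sox9 and Cilp2, which was a condition for naming them and also held for 2191 higher genes among all tested.

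Other rises were less even between the 4-OHT libraries. Ier5l, a relative of an immediate early gene, was at 21.7 and 23.2 CPM in EtOH and at 28.3 and 35.6 CPM in 4-OHT. H1fx, a linker histone gene, was at 12 and 12.5 CPM in EtOH and at 14.3 and 19.3 CPM in 4-OHT. Replicate 2 of 4-OHT was the higher one in 11 of the 12 largest rises of at least 10 mean CPM outside the clock list, the exception being Eif5a2, which encodes an isoform of a translation factor, at 43.1 and 43.5 CPM in EtOH and 61.6 and 56.0 CPM in 4-OHT. Over all 101 genes called higher, the median log2 difference from the EtOH mean was 0.33 in 4-OHT replicate 1 and 0.46 in replicate 2. For the 202 genes called lower it was −0.43 and −0.46, so the fall was of much the same size in both libraries.

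**Figure D2:**
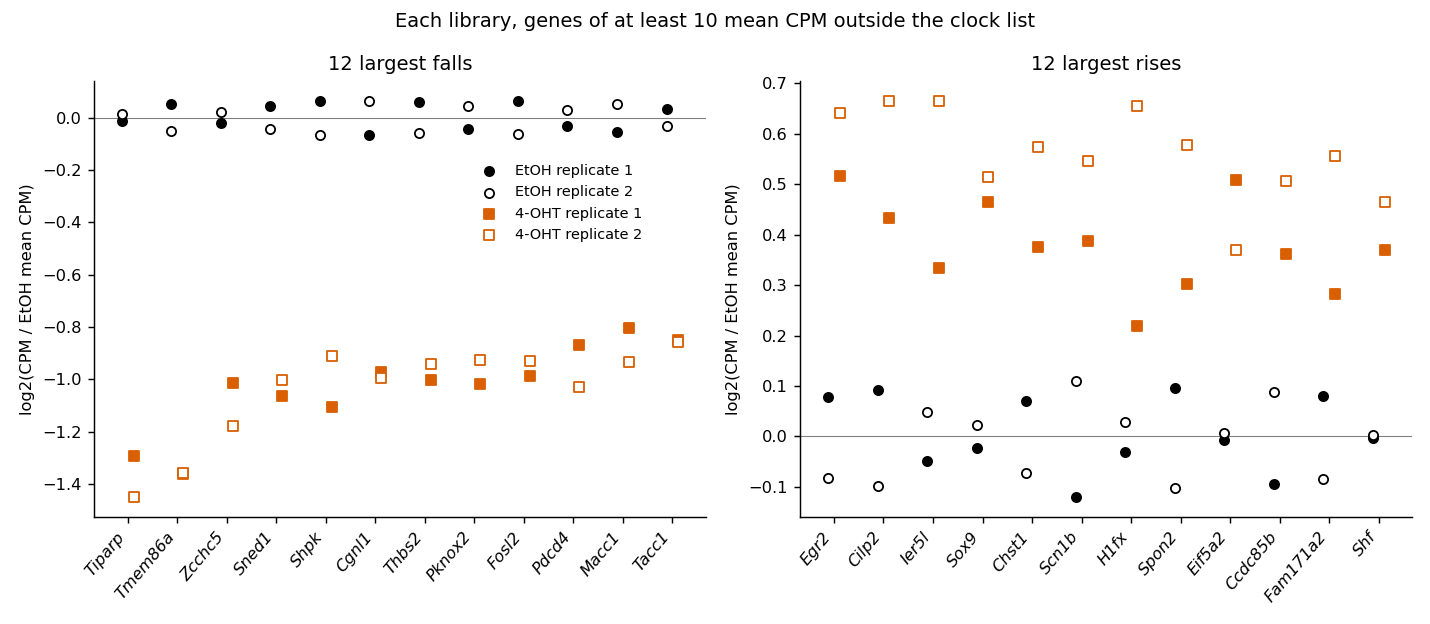
Each gene's CPM in each library is shown as log2 of its ratio to the EtOH mean, for the 12 largest falls (left) and rises (right) of at least 10 mean CPM outside the clock list; circles are EtOH and squares 4-OHT libraries. The 2 squares of a fall lie close together near −1, while among the rises the open square of 4-OHT replicate 2 lies above the filled one in 11 of 12 genes.

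The most abundant transcript that changed encodes a matrix protein. The levels given next are CPM per kilobase of exon (RPKM), which compares genes of unequal length. Thbs1, the thrombospondin that can activate latent TGF-beta, had the highest level of the called genes at 583 RPKM and went from 3816 and 3812 to 2972 and 2935 CPM. Its log2 change of −0.37 ± 0.06 (SE) was called in all 4 fits without 1 library. Ssr3, a subunit of the complex that helps proteins enter the endoplasmic reticulum, stood at 375 RPKM and went from 1254 and 1329 to 914 and 834 CPM, a log2 change of −0.56. Cyr61 and Nov, matricellular proteins of the CCN family, changed by −0.27 and −0.23.

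At the upper end of expression, rises were few and slight. Txnip, an inhibitor of thioredoxin and of glucose uptake at 162 RPKM, went from 415 and 420 to 496 and 488 CPM, a log2 change of 0.24 ± 0.06 (SE). Gas1, a growth arrest protein and Hedgehog co-receptor, and Hnrnpa0, an RNA-binding protein, changed by 0.27 and 0.31. Txnip was called in none of the 4 fits without 1 library, Gas1 in 1 and Hnrnpa0 in 2.

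All called TGF-beta and BMP ligands and receptors were lower. Of 18 tested ligands and receptors of the TGF-beta and BMP family, 5 fell and 0 rose by edgeR's test (DESeq2 also 5 and 0), against 1.74% and 0.868% of all tested genes. At an unadjusted p below 0.05, 5 were lower and 2 higher. Tgfb2 (chr1:186623186-186705992), a ligand, went from 150 and 161 to 95.6 and 91.4 CPM, a log2 change of −0.74 ± 0.06 (SE, edgeR adjusted p = 5.7e-10). Tgfbr3 (chr5:107106570-107289595), the co-receptor betaglycan that presents TGF-beta2, went from 139 and 144 to 88.6 and 85.8 CPM, a log2 change of −0.70. The ligand Tgfb3 went from 295 and 297 to 220 and 224 CPM, a log2 change of −0.42.

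These 3 were called in all 4 fits without 1 library, whereas the smaller falls of Tgfbr2, the type II receptor (log2 change −0.24), and Bmp4 (−0.24) were called in 0 and 1 of them. The median log2 change of the 18 genes was −0.00, and of the 13 uncalled members 9 had a positive and 4 a negative log2 change.

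Receptors that signal through gp130 were also among the falls. Of 34 tested cytokines, chemokines and receptors, 5 fell and 1 rose, against 1.74% lower and 0.868% higher over all tested genes. The direction turned at an unadjusted p below 0.05, where 10 were higher and 6 lower, and 21 of the 34 log2 changes were positive. Il6ra, the interleukin 6 receptor (chr3:89869324-89913162), went from 52.9 and 53.1 to 37.2 and 39.4 CPM, a log2 change of −0.47 ± 0.07 (SE). The shared signalling chain gp130, encoded by Il6st, went from 889 and 900 to 783 and 753 CPM, and its partner Lifr from 291 and 286 to 251 and 233 CPM.

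Csf3, encoding the growth factor G-CSF, went from 1.17 and 1.02 to 0.373 and 0.409 CPM. It passed the expression minimum only through the EtOH libraries, so among tested genes it could only be lower. The chemokine genes Cxcl12 and Cxcl10 changed by −0.24 and 0.23. Falls in this list numbered 2 without either EtOH library in turn and 2 without 4-OHT replicate 2, and Il6ra was called in all 4 such fits. Csf3 was too, with a direction that the minimum had fixed, while Il6st and Lifr were each called in 1.

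Immediate early genes, which respond to signals within minutes to hours without new protein synthesis, moved in both directions. Of 26 tested, 5 rose and 2 fell, against 0.868% higher and 1.74% lower over all tested genes. At an unadjusted p below 0.05, 9 were higher and 2 lower, against 609 and 596 of all 11639 tested genes. The risers were Egr2, Egr3, Junb, Klf10 and Ier5. Egr3 went from 5.0 and 4.24 to 6.43 and 7.36 CPM and Junb, an AP-1 subunit, from 78.3 and 76.6 to 90.4 and 107 CPM. The falls were of Fosl2, another AP-1 subunit described above, and Atf3, a stress-induced repressor that went from 17.4 and 17.8 to 11.2 and 10.6 CPM. Without 4-OHT replicate 2 the number of risers was 2, without EtOH replicate 2 it was 3, and both falls were called in all 4 fits.

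Inhibitors that growth factor signalling induces moved in both directions, with 2 higher and 2 lower, against 0.868% and 1.74% of all tested genes. Of 19 tested, Errfi1, a brake on the EGF receptor, went from 138 and 136 to 101 and 100 CPM, and Rgs4, which shortens G protein signals, from 14.8 and 14.7 to 10.2 and 9.06 CPM. Socs1, an inhibitor of JAK kinases, went from 4.30 and 4.14 to 5.71 and 6.88 CPM. Dusp6, a phosphatase of ERK kinases, changed by 0.29 on the log2 scale and was called in none of the 4 fits without 1 library.

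Developmental transcription factors of mesenchyme were called more often as higher. Of 57 tested, 8 rose (Sox9, Scx, Sox4, Foxq1, Snai1, Twist2, Dlx5 and Pitx1) and 3 fell (Msx2, Eya2 and Meis1). Over all tested genes 0.868% were higher and 1.74% lower. Scx, the tendon factor scleraxis, went from 72.5 and 78.5 to 89.9 and 109 CPM. Snai1, a repressor of epithelial genes, went from 11.4 and 11.5 to 13.0 and 17.1 CPM. Msx2, a homeobox factor of skull and limb, went from 9.03 and 11.3 to 5.53 CPM in both 4-OHT libraries, a log2 change of −0.88.

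The risers of this list leaned on 1 library. Without 4-OHT replicate 2 the list held 1 riser, without either EtOH library in turn 3, and without 4-OHT replicate 1 it held 10. The 3 falls were called in every one of these fits. Sox9 was the riser called in all 4. Among 24 Notch and Hedgehog genes 3 rose and 0 fell, against 0.868% and 1.74% of all tested genes. The risers were Hes1, a Notch-induced repressor, from 8.99 and 9.48 to 11.9 and 12.6 CPM, Maml3, a Notch coactivator, and Gas1. They were called in 2, 3 and 1 of the 4 fits without 1 library. DESeq2 also gave 3 and 0, and an unadjusted p below 0.05 gave 8 higher and 1 lower.

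Called actin and myosin genes were all lower, as most called genes were. Of 36 actins and actin-binding contractile genes 3 fell and 0 rose, and of 24 myosins 2 fell and 0 rose. For comparison, 1.74% of all tested genes were lower and 0.868% higher. Myo10, the filopodial motor, went from 392 and 398 to 267 CPM in both 4-OHT libraries, and Myo18a, a Golgi-associated myosin, from 220 and 216 to 135 and 140 CPM. Mylk, the myosin light chain kinase, went from 62.3 and 65.3 to 46.9 and 47.2 CPM, a log2 change of −0.44. The other falls of the actin list, Flnc and Mical2, were smaller, with a log2 change of −0.25 each. At an unadjusted p below 0.05 each of these groups had 1 gene higher, with 6 and 4 lower, and DESeq2 called 0 higher and 3 and 2 lower.

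Of 57 tested kinesin, dynein and tubulin genes 3 rose and 1 fell, against 0.868% and 1.74% of all tested genes. The tubulin genes Tubb2a, Tubb2b and Tubb3 rose by 0.29, 0.27 and 0.50 on the log2 scale and were called in 2, 2 and 1 of the 4 fits without 1 library. The kinesin heavy chain gene Kif5c changed by −0.41 and was called in 2. Tubb2a and Tubb2b are near copies of each other, so reads may have been split between them. The summed level of the neural markers, of which Tubb3 is one and 2 were tested, was 9.28 to 10.1 CPM in EtOH and 11.4 to 11.5 CPM in 4-OHT, with Gfap, Olig2 and Snap25 at 0; their part in the result was not tested.

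Extracellular matrix genes showed a few clear falls within largely unmoved classes. Their counts stand against 1.74% lower and 0.868% higher over all tested genes. Of 47 tested matrix glycoproteins and proteoglycans, Thbs2, Thbs1 and Omd fell, 0 rose by edgeR or DESeq2, and the median log2 change was 0.03. An unadjusted p below 0.05 was reached by 5 higher and 5 lower genes of this group. Of 24 collagen genes 1 fell: Col8a1, a short-chain collagen of vessel and cornea matrix, went from 165 and 156 to 108 and 102 CPM, a log2 change of −0.61. Matrix enzymes and inhibitors were divided, with 3 of 47 higher and 2 lower. Plat, the tissue plasminogen activator, went from 169 CPM in both EtOH libraries to 209 and 212 CPM and was called in 2 of the 4 fits without 1 library.

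Called genes of fatty acid metabolism and lipid mediators were mostly lower, as called genes were in general. Of 49 tested genes of fatty acid synthesis, storage and oxidation, 4 fell and 1 rose, against 1.74% and 0.868% of all tested genes. Sterol synthesis and uptake genes did not share this direction: of 30 tested, Ch25h rose (log2 change 0.66) and 0 fell by edgeR. At an unadjusted p below 0.05, 1 sterol gene was higher and 3 were lower. Fabp5, a fatty acid carrier, went from 77.9 and 74.1 to 46.8 and 51.0 CPM, a log2 change of −0.64 ± 0.07 (SE). Elovl5, a fatty acid elongase, went from 145 and 157 to 119 and 108 CPM, and Acsl3, which activates fatty acids, from 294 and 314 to 242 and 226 CPM. Cpt1a, the gate of mitochondrial fatty acid oxidation, changed by 0.26 and was called in 1 of the 4 fits without 1 library.

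Among 20 genes of lipid mediators 4 fell and 0 rose by edgeR, and 3 fell and 0 rose by DESeq2, with 1 higher at an unadjusted p below 0.05. The shares of all tested genes were 1.74% lower and 0.868% higher by edgeR. Alox12, a 12-lipoxygenase, went from 7.25 and 6.57 to 3.45 and 3.97 CPM and Hpgd, which inactivates prostaglandins, from 16.9 and 16.5 to 11.7 and 11.6 CPM; both were called in all 4 such fits. Enpp2, the enzyme autotaxin that makes lysophosphatidic acid, and Lpar4, a receptor for it, changed by −0.28 and −0.29 and were each called in 1 of them. The adipocyte markers, of which 3 were tested, summed to 78.6 to 84.5 CPM in EtOH and 67.3 to 68.0 CPM in 4-OHT, where Fabp4, itself lower by 0.34 on the log2 scale, made up most of the sum. Adipoq, Lep, Lpl and Plin1 were at 0, and the part of these markers in the lipid result was not tested.

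Apart from the clock genes, textbook estrogen receptor targets had the largest share of calls among lists with at least 5 tested members. Here 3 of 16 tested genes were higher and 2 lower (31.2% called, against 2.6% of all tested genes). Greb1, a coactivator that estrogen induces in breast cells, went from 13.4 and 11.7 to 2.99 and 3.26 CPM, a log2 change of −2.0 ± 0.11 (SE, edgeR adjusted p = 3.4e-15), and was called in all 4 fits without 1 library. The risers Gpr30, a membrane estrogen receptor, Igf1 and Egr3 changed by 0.65, 0.41 and 0.58, each called in 2 of the 4 such fits, and Cxcl12 was the other fall. Without EtOH replicate 2 or without 4-OHT replicate 2 the list held 1 riser and 1 fall.

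**Figure D3:**
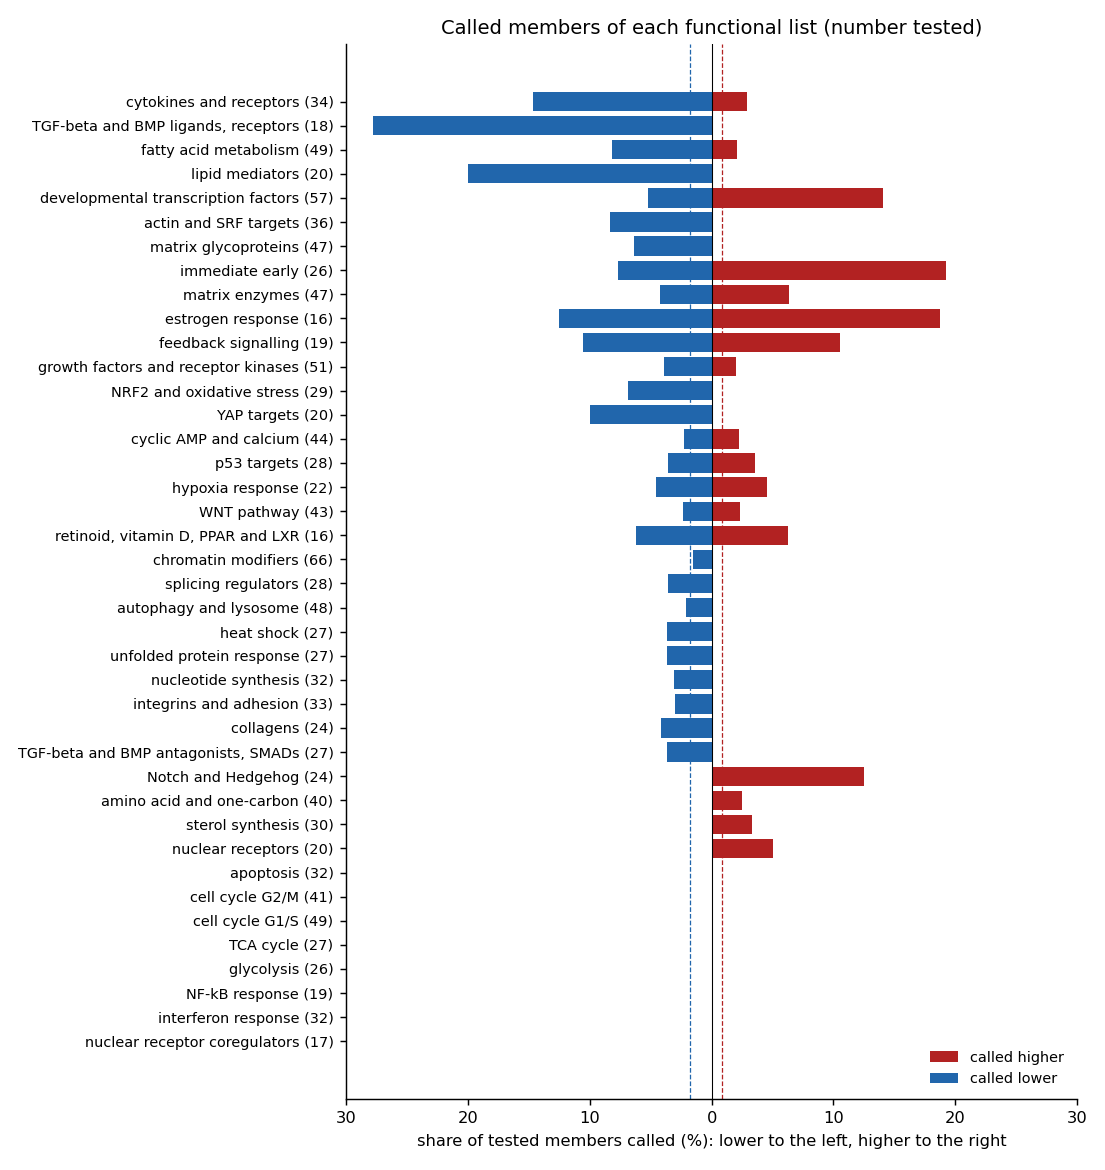
For each list drawn, bars give the share of tested members called lower (blue, to the left) or higher (red, to the right). The number tested is in parentheses, and dashed lines mark the shares over all tested genes, 1.74% and 0.868%. The clock list and short lists, such as that of the aryl hydrocarbon receptor (8 tested, 2 lower), are not drawn. Among the lists drawn, the longest bar in one direction is that of TGF-beta and BMP ligands and receptors, all of it lower. The lists at the foot have 0 calls.

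Whole functional classes had no called gene by edgeR's quasi-likelihood test, against 2.6% of all tested genes called. Over all tested genes, 70.3% lay below 0.1 in absolute log2 change. 10 housekeeping sets (cytosolic and mitochondrial ribosomal proteins, respiratory complexes, proteasome, tRNA synthetases, RNA polymerases, Mediator, DNAJ and CCT chaperones, deubiquitinases and the TCA cycle) together held 495 tested genes and 0 calls, with a median log2 change of −0.00 and 85.3% of genes below 0.1 in absolute value. In these sets 2 genes were higher and 12 lower at an unadjusted p below 0.05, and DESeq2 called 1 of them lower, the ribosomal protein gene Rpl14, whose reads can be shared with processed copies. None of 49 G1/S and 41 G2/M cell cycle genes, 32 interferon-stimulated genes, 26 glycolytic genes or 32 apoptosis genes was called by edgeR or DESeq2. With 2.6% of all tested genes called by edgeR, 0 calls in lists this short do not set them apart. Each cell cycle list had 1 gene higher and 1 lower at an unadjusted p below 0.05, and the other 3 lists had 4, 4 and 3 genes higher and 0 lower. Of the glycolytic genes 22 had a positive log2 change (median 0.10), and of the G2/M genes 33 a negative one (median −0.05). Of 172 solute carriers 1 was called, the mitochondrial aspartate-glutamate carrier Slc25a12, which went from 153 and 151 to 103 CPM in both 4-OHT libraries. Of the 303 called genes, 150 belonged to none of the lists or symbol families described.

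The direction of the calls differed with expression level. Among genes of 3 to 10 mean CPM 1.76% were higher and 1.91% lower, whereas at 300 CPM and over 0.378% were higher and 2.84% lower. The near balance at 3 to 10 CPM, 24 higher and 26 lower genes, was lost without 4-OHT replicate 2, where 5 were higher and 17 lower. The median mean level was 16.1 CPM for genes called higher, 49.2 CPM for genes called lower and 40.6 CPM for all tested genes. Without 4-OHT replicate 2 these medians were 30.2 CPM for higher and 54.9 CPM for lower genes, and for the calls of DESeq2 44.4 and 69.2 CPM, so how low the level of higher genes was depended on the library and the tool. Precision rose with level: the smallest called absolute log2 change was 0.50 at 1 to 3 CPM and 0.22 at 300 CPM and over, so small changes of low transcripts could not be detected at this depth. In the 40 genes below 1 mean CPM 8 were lower and 1 higher. Of all tested genes, 18 met the minimum through the EtOH libraries only, 10 of them called lower, and 28 through the 4-OHT libraries only, 3 of them called higher. Genes of these kinds had to differ to be tested and are no sign of a stronger response at low levels.

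Called genes also differed in size. The median gene span was 10.2 kb for genes called higher, 43.7 kb for genes called lower and 21.8 kb for all tested genes, with median merged exon counts of 4, 10 and 9. Of genes spanning less than 5 kb 2.34% were higher and 1.3% lower, and of those spanning 100 to 300 kb 0.261% were higher and 4.35% lower. Egr2, Ier5l, Junb, Socs1 and Hes1 are short genes of the first kind, and Tgfbr3 and Cgnl1 long genes of the second. Of 541 genes with at least 8000 bases of exon, 17 were lower and 0 higher.

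**Figure D4:**
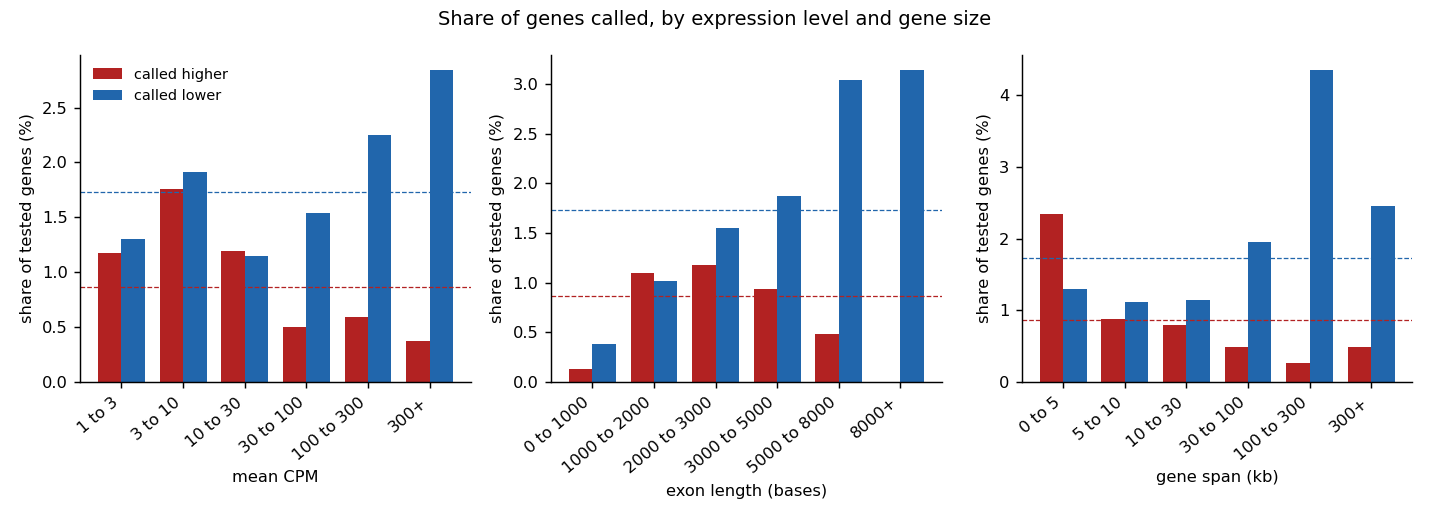
Bars give the share of tested genes called higher (red) and lower (blue) by mean CPM, summed exon length and gene span, with dashed lines at the shares over all tested genes. Genes below 1 mean CPM are not shown. Red bars are highest for genes of 3 to 10 CPM and under 5 kb, and blue bars for genes of 300 CPM and over and of 100 to 300 kb.

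Part of this size pattern was present between libraries of the same group. The median log2 difference of 4-OHT replicate 1 minus replicate 2 ran from −0.07 for genes with less than 1000 bases of exon to 0.05 for those with at least 8000 bases. Between the EtOH libraries it ran from 0.04 to −0.00. Against the EtOH mean, 4-OHT replicate 2 ran from 0.06 to −0.09 and replicate 1 from −0.01 to −0.04 over the same range. Without 4-OHT replicate 2 there were 37 higher genes, with a median span of 20.0 kb and a median exon length of 4090 bases, and 156 lower genes, with medians of 39.96 kb and 3344.5 bases. In the full set the median exon length was 2678 bases for higher and 3620.5 bases for lower genes, so the order of the exon lengths turned round without that library, while lower genes still had the longer span.

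**Figure D5:**
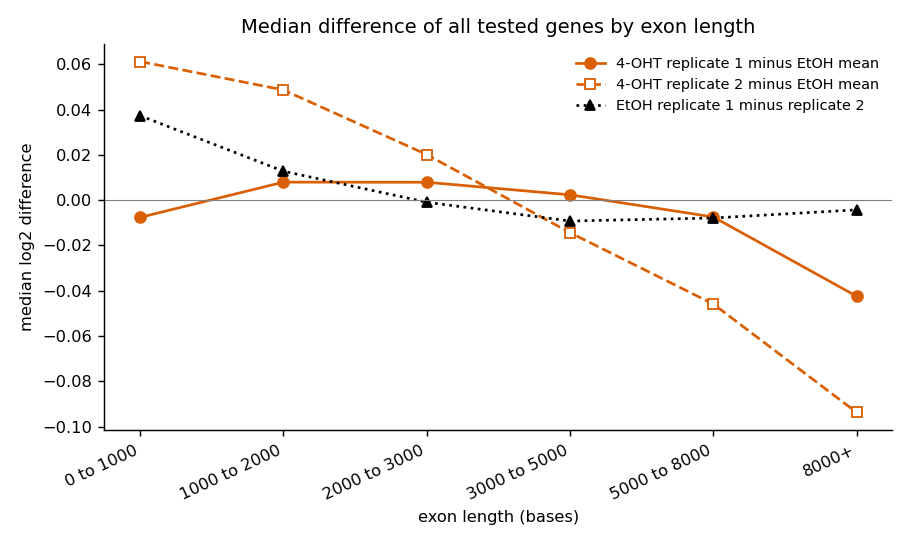
Lines give the median log2 difference of all tested genes in bins of summed exon length, for each 4-OHT library against the EtOH mean and for EtOH replicate 1 against replicate 2. The dashed line of 4-OHT replicate 2 falls from 0.06 to −0.09, a wider range than that of 4-OHT replicate 1 or of the 2 EtOH libraries.

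Falls were more stable than rises when a library was left out. Of the 202 genes called lower, 112 (55.4%) were called in all 4 fits without 1 library, and of the 101 called higher, 12 (11.9%). The 202 include 10 genes that passed the expression minimum through the EtOH libraries only, and the 101 include 3 through the 4-OHT libraries only. The minimum fixed the direction of these genes, and the counts held in all 4 fits do not set them apart. The 12 higher genes were Hlf, Cry1, Cry2 and Tsc22d3 with Atoh8, Egr2, Rgcc, Cilp2, Ier5l, Sox9, Eif5a2 and Shf. Hlf passed the expression minimum only through the 4-OHT libraries, so its direction was fixed by the minimum. Atoh8, a basic helix-loop-helix factor, went from 6.55 and 7.39 to 9.52 and 11.4 CPM, and Rgcc, a regulator of the cell cycle, from 4.85 CPM in both EtOH libraries to 6.96 and 7.45 CPM. Without either EtOH replicate 2 or 4-OHT replicate 2, 37 genes were higher, and without 4-OHT replicate 1, 173. The authors' deposited table of the same comparison held 3317 genes, among them 89 of the 303 called here. Within the authors' deposited table, an adjusted p below 0.05 was given for 82 genes, of which 81 were called here in the same direction.

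Within 10 kb of gene starts, BMAL1 regions were not clearly more frequent at called than at uncalled genes. A region, taken from the authors' list of 4740 BMAL1 ChIP-seq peaks, lay within 10 kb of the start of 33.7% of the higher genes (34 of 101; Wilson 95% interval 25.2 to 43.3%), 29.9% of the lower genes (60 of 201; 24.0 to 36.5%) and 28.7% of the uncalled genes (3247 of 11322; 27.9 to 29.5%). The intervals of the 3 classes overlapped. Within 25 kb the shares were 45.5% of higher (36.2 to 55.2%), 38.3% of lower (31.9 to 45.2%) and 36.7% of uncalled genes (35.8 to 37.6%). At 100 CPM and over, 0.839% of the 1073 genes with a region within 10 kb were higher and 3.08% lower, against 0.367% and 1.9% of the 1634 genes without one, a difference that was not tested. Below 10 CPM, 0.73% of genes with a region were lower, against 2.24% without one. Among the genes described above, Ier5l, Junb, Klf10, Hes1, Scx and Txnip were risers with a region across their start, and Il6ra, Il6st, Errfi1 and Cyr61 were falls with one. For Thbs1, Tgfbr2, Cgnl1 and Sox9 the nearest region lay more than 300 kb away.

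Promoter sequences were matched for 8461 tested genes, from 250 bases before to 50 bases after the start (RefSeq, GRCm38.p6), including 70 of the higher and 150 of the lower genes. The canonical E-box CACGTG, which reads the same on both strands, was in 11.4% of higher, 10.7% of lower and 10.6% of all matched promoters. The TATA box TATAAA, searched on both strands, was in 10% of higher, 12.7% of lower and 6.69% of all promoters, and the GC box GGGCGG in 70%, 62% and 68.4%. The D-box TTATGTAA, bound by HLF and its relatives, was in 1 of 70 higher (1.43%), 4 of 150 lower (2.67%) and 34 of all 8461 promoters (0.402%). The full palindromes of the estrogen response element and of the glucocorticoid response element were in none of these windows. Of 286 promoters under 45% GC, 15 belonged to lower genes (5.24%, against 1.77% of all matched promoters) and 1 to a higher gene (0.35%, against 0.827%).

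The promoters of 5 called genes that hold an E-box and have a BMAL1 region across their start are shown because 4 of the transcripts fell and 1 rose; they were picked after their values were seen. The E-box is in capitals, each sequence runs 5′ to 3′ on the strand of its gene, and its place is counted from the transcription start.
Rreb1 (chr13:37825788-37826087, + strand, E-box from −9): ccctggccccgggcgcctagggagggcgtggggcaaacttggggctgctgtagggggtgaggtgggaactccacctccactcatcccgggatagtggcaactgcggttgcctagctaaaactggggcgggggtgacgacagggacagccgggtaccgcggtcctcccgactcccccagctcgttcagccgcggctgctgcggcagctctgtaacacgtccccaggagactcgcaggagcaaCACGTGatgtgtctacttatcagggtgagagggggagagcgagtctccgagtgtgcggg
Gadd45g (chr13:51846425-51846724, + strand, E-box from −142): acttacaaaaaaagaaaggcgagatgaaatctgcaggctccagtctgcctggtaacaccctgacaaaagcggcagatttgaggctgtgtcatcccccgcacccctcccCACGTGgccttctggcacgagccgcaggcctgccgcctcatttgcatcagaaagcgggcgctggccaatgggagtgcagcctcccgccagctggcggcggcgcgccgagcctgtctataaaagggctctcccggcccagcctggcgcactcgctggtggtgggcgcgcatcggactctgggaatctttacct
Pgrmc2 (chr3:41082997-41083296, − strand, E-box from −37): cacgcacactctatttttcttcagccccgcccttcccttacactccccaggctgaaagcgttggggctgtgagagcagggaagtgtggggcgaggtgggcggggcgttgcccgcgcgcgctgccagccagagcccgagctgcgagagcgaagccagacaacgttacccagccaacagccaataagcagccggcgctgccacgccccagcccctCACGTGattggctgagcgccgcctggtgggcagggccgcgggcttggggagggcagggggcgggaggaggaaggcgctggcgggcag
Il6ra (chr3:89913147-89913446, − strand, E-box from −24): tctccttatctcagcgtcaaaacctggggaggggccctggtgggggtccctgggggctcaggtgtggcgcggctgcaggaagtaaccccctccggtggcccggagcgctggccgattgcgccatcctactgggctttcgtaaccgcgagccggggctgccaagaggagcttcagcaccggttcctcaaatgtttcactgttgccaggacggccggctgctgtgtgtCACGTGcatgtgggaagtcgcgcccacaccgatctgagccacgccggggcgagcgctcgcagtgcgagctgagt
Eif5a2 (chr3:28781027-28781326, + strand, E-boxes from −142 and −117): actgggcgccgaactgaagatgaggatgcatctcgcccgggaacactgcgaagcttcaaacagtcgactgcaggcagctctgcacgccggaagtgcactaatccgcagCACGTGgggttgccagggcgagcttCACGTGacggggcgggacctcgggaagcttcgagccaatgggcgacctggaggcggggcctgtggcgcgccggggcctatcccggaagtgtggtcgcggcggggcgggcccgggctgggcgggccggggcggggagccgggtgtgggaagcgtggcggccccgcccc

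The mean BMAL1 signal of each of the 5 regions was lower after 4-OHT, whichever way the transcript went. Those of Pgrmc2 and Rreb1 rested on few reads. At Rreb1 EtOH replicate 1 (13.3) and 4-OHT replicate 2 (13.0 reads per 10000000 library reads) lay close together, so a drop there was not established. Summed over all 4740 regions, the share of library reads was lower as well. In the EtOH ChIP libraries 355452 of 13502201 and 434028 of 17635022 reads lay in regions. In the 4-OHT ChIP libraries 94615 of 13740997 and 155220 of 20712373 did. A lower signal therefore did not set these 5 genes apart. Eif5a2, with a pair of E-boxes, had 721 and 691 reads per 10000000 library reads in the EtOH ChIP libraries and 102 and 133 in the 4-OHT libraries, a 6.0-fold lower signal, and its mRNA rose by 0.44 on the log2 scale. Il6ra had a signal of 101 and 81.1 in EtOH and 30.6 and 27.5 in 4-OHT, and its mRNA fell. Gadd45g, a stress-induced growth arrest gene, had a signal of 124 and 119 in EtOH and 25.5 and 25.6 in 4-OHT, and its mRNA went from 43.8 and 40.7 to 26.3 and 30.8 CPM.

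The remaining pair had weaker regions. Pgrmc2, a membrane-bound progesterone receptor component, had a signal of 17.8 and 9.07 in EtOH and 5.82 and 3.38 in 4-OHT, and its mRNA went from 227 and 238 to 174 and 170 CPM. Rreb1, a zinc finger factor that acts with RAS and SMAD signals, had a signal of 13.3 and 15.3 in EtOH and 9.46 and 13.0 in 4-OHT, a 1.27-fold difference, and its mRNA went from 65.2 CPM in both EtOH libraries to 42.6 and 43.9 CPM. The 5 transcripts were called in all 4 fits without 1 library. Rreb1 had the smallest difference in signal of the 5 and the largest mRNA change, which was close to that of Gadd45g (log2 changes −0.59 and −0.56). As the 5 were picked after their values were seen, how signal and mRNA change relate was not tested.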

How the data were processed

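mRNA was sequenced from stranded TruSeq libraries, per the labels' protocols. The deposited values are raw read counts per gene, summed over exons on mm10; featureCounts v1.5.0-p1 produced them, per the file headers. No source used here names the aligner. The test of counts used edgeR 4.0.16 (R 4.3.3; TMM factors, robust quasi-likelihood fit, 2 groups, no covariate, Benjamini-Hochberg over all tested genes), with common biological variation of 4.98%. CPM uses TMM-scaled totals, and RPKM divides it by the deposited exon length. The submitters' processing notes name DESeq2 and bedtools 2.25.0. The authors' deposited table holds p-values, log2 fold changes and a test score, and was used only for the stated comparison. Region signal deposited by the authors equals 5 plus reads per 10000000 library reads, and the 5 was subtracted. Region counts deposited per library served to check this. Intervals cover counting error only.

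Members and lists were chosen with earlier results of these data known, so lists were described and not tested. Named genes outside the clock list were the 12 largest changes per direction at 10 CPM or more with groups apart, the 5 highest by RPKM per direction, up to 4 called members per list and direction, Rbm20, Nptxr and the genes that check the genotype; Ier5, Bmp4, Atoh8, Rgcc, Rreb1, Pgrmc2, Rpl14, Snai1, Twist2, Dlx5 and Pitx1 were named after their values were seen, to complete a count or a set. Alternatives were other scaling factors, DESeq2 1.42.0, other expression filters, a replicate block and leaving out each library. The scripts were tested on simulated counts.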

Additional observations from a re-analysis of the deposited data

How the results depend on the processing

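Of 146 called genes named by rule, all 146 kept their direction under all 11 other settings tried (other scaling, DESeq2, filters, replicate block, 1 library left out), and 63 were called under every one. The CPM values of the groups did not overlap for any called gene, so the direction could hardly turn and its keeping is no check. DESeq2 called 66 genes higher and 185 lower. When 1 library was left out, higher genes numbered 37 to 173, lower genes 133 to 219, and the median size of a called log2 change was 0.40 to 0.57, against 0.42 in the full set; the lone library of a group was then assumed to vary like the others. The lowest counts came without EtOH replicate 2, with 37 higher and 133 lower genes, and the cause was not tested. Other scaling factors and expression filters moved each count by less than 1.5 times. The exact outcome for genes near 1 CPM depends on depth. Same-numbered libraries deviated in opposite ways (correlation −0.35), and the labels do not say what the numbers mark, so no pairing was used: the replicate block gave 61 higher and 142 lower genes. A crossed replicate block, chosen after seeing the data, gave 529 higher and 593 lower genes with a median size of 0.21.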
